A study of Mus musculus with 9 samples.

Results

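The 10 genes described here equip a cell to show peptides on MHC class I molecules. Their expression was measured in mouse samples labelled as cardiomyocytes, the muscle cells that make the heart beat. They are the 3 catalytic immunoproteasome subunits (Psmb8, Psmb9 and Psmb10), both chains of the PA28 activator (Psme1 and Psme2), both chains of the peptide transporter (Tap1 and Tap2), tapasin (Tapbp), the trimming peptidase Erap1 and the regulator Nlrc5. They were chosen by symbol, and each symbol matched 1 of the 55487 gene identifiers in the count table. All 10 were among the 15633 genes tested, and each had at least 14 counts in every control library, so none entered the test through a single group. The study sequenced RNA from samples described as isolated cardiomyocytes in 3 groups of 3 libraries. The overexpression group received AAV9-Firre, an adeno-associated virus vector for the long noncoding RNA Firre. The negative control received the AAV9 control vector (AAV9-VC), and the blank control (NC) is labelled only as blank. The sources used here do not give the mouse strain, the age, the promoter of the vector, its dose or the time after its delivery.

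The proteasome is a barrel-shaped protease that cuts ubiquitin-tagged proteins into peptides. Interferons induce 3 alternative catalytic subunits that replace their constitutive partners as new barrels are built, which shifts the cleavage sites towards peptides that class I molecules bind well. The PA28 ring opens the barrel, the TAP transporter carries peptides into the endoplasmic reticulum, ERAP1 trims them there, and tapasin holds an empty class I molecule at the transporter until a peptide fits. NLRC5 is a transcriptional coactivator of class I genes. Resting heart muscle is known for low class I expression, and leukocytes for high levels of the immunosubunits.

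Gene-assigned counts ran from 15591542 to 22697016 per library. As a check of the labels, Firre had 62.6 to 69.7 CPM (counts per 1e6, after TMM scaling of each library) in the overexpression libraries and 30.2 to 37.2 CPM in the 6 controls. All 12 cardiomyocyte markers on the list used were detected, with a summed level of 34832 to 37801 CPM in the negative control and 53318 to 56408 CPM with Firre, and all 12 rose. Macrophage markers went the other way: 13 of 15 were tested and all 13 fell, the summed level was 97.5 to 114 CPM in the blank control, 75.9 to 82.2 CPM in the negative control and 12.0 to 13.6 CPM with Firre, and C1qa was at 0 in the Firre libraries. Endothelial markers fell in 10 of 10 (summed level 1323 to 1340 CPM in the negative control and 548 to 585 CPM with Firre), and fibroblast markers fell in 9 of 10 (9766 to 9974 CPM and 4478 to 5021 CPM). These counts of markers are calls against the negative control at an adjusted p under 0.05. In that comparison 27.5% of all genes tested were called higher and 28.4% lower. None of 10 lymphocyte markers had enough counts to be tested. Their summed level was at most 0.447 CPM in any library, and Cd3d, Cd4, Cd8a and Nkg7 had 0 counts throughout. The share of counts from mitochondrial genes was 7.07% to 8.07% with Firre and 5.89% to 6.80% in the 6 controls, ranges that did not overlap. These changes in markers and mitochondrial share accompany every result with Firre given here, and their part in those results was not tested. In bulk RNA, fewer cells of a type and less RNA per cell cannot be told apart. Because markers of fibroblasts, endothelial cells and macrophages were detected too, the levels given here cannot be assigned to cardiomyocytes alone.

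All 10 genes rose with Firre against the negative control, by 1.54-fold (Nlrc5) to 6.74-fold (Psmb8), and the median of their log2 fold changes was 1.24, beside 0.00024 over all genes tested. The call was common in this comparison: edgeR's quasi-likelihood test called 27.5% of all genes tested higher and 28.4% lower at an adjusted p under 0.05. A rise of at least 2-fold that also passed the test was found in 4.89% of all genes and in 8 of the 10 genes described, Erap1 and Nlrc5 being the others. In each of the 10, all 3 Firre libraries lay above all 6 control libraries, an arrangement that held for 25.7% of all genes tested. Against the blank control all 10 rose as well, by a median of 1.20, where 27.3% of all genes were called higher. Both comparisons use the same Firre libraries.

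**Figure D1:**
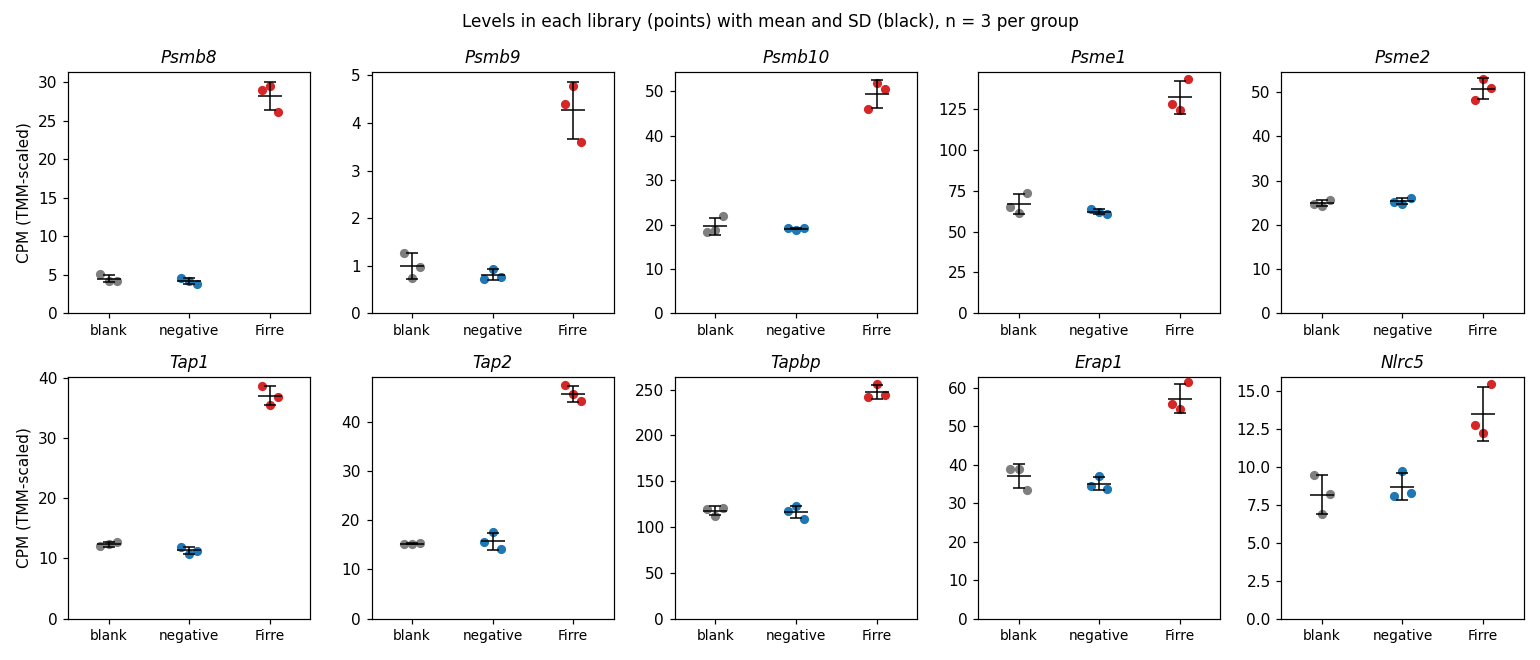
Level of each of the 10 genes in CPM (y axis, from 0) in the 3 libraries of the blank control, negative control and Firre overexpression groups; points are libraries and black bars the mean and SD. In each panel the Firre points sit above all 6 control points, most widely for Psmb8 and least for Nlrc5.

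Psmb8, which encodes the immunosubunit LMP7 with chymotrypsin-like activity, had the largest rise. Firre libraries held 29.0, 29.4 and 26.1 CPM of it, against 4.57, 4.14 and 3.83 CPM across the negative controls, and 5.04, 4.19 and 4.23 CPM across the blank ones. The Firre libraries were closely grouped and far above both controls, which overlapped each other. The log2 fold change against the negative control was 2.75 (SE 0.11, adjusted p = 6.60e-19), higher than in 99.6% of all genes tested. Psmb8 (ENSMUSG00000024338) lies on the plus strand of chromosome 17 in the MHC class II region, at chr17:34197721-34201454 in mm10.

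The 300 bases around its start site are shown because Psmb8 moved most. They come from RefSeq on GRCm38.p6, the mm10 build, run from 250 bases before to 50 after the start (chr17:34197945-34198244, plus strand), and carry in capitals the only match to the motifs searched, a GAS core (TTCNNNGAA, a palindrome found in interferon-responsive promoters). The gene span given above is from another annotation, GENCODE, and starts earlier. The whole window lies inside that span, so its bases are not upstream of the GENCODE start.
Psmb8: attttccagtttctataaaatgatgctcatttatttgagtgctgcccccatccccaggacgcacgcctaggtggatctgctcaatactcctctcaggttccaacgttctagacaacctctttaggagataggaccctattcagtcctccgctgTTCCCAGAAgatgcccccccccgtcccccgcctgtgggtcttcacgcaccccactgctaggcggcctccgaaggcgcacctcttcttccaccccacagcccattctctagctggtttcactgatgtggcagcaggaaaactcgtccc

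Psmb9, whose product LMP2 replaces the caspase-like subunit, had the lowest level per length of the 10. It had 4.40, 4.79 and 3.60 CPM with Firre, against 0.719, 0.941 and 0.765 CPM across the negative controls, and 1.28, 0.731 and 0.972 CPM across the blank ones. The controls rest on 14 to 20 counts per library and the Firre group on 69 to 106, so its fold change is less precise than the others, at 2.39 on the log2 scale (SE 0.26, adjusted p = 2.39e-09). Psmb9 (ENSMUSG00000096727, minus strand, chr17:34181987-34187764) shares 212 exon bases with Tap1 on the other strand. The sources used here do not say whether the counting used strand, so its value is uncertain at these bases.

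Psmb10, the gene of MECL-1, which takes the trypsin-like position, had the highest length-scaled control level of the immunosubunit genes. Its Firre libraries had 46.0, 52.0 and 50.6 CPM, the negative controls 19.1, 18.9 and 19.1 CPM and the blank controls 18.3, 18.8 and 21.8 CPM. The rise of 1.38 (SE 0.08, adjusted p = 1.17e-15) was about 2.60-fold. Unlike the other immunosubunit genes, Psmb10 (ENSMUSG00000031897) lies outside the MHC, on the minus strand at chr8:105935735-105938444.

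The PA28 chains moved by nearly the same amount. Psme1, the gene of PA28 alpha, had 128, 125 and 144 CPM with Firre, 63.8, 61.9 and 60.9 CPM across the negative controls, and 65.1, 61.5 and 73.9 CPM across the blank ones. Psme2, the gene of PA28 beta, had 48.2, 53.0 and 51.0 CPM, 25.1, 24.8 and 26.1 CPM, and 24.8, 24.3 and 25.7 CPM in the same order. Psme1 rose 2.12-fold (SE 0.06 on the log2 scale, adjusted p = 6.81e-15) and Psme2 2.01-fold (SE 0.07, adjusted p = 1.03e-13). Per kilobase of exon, the Psme1 level stood to Psme2 at a ratio of 2.08 ± 0.190 with Firre, 1.96 ± 0.0872 in the negative control and 2.14 ± 0.145 in the blank control (SD, n = 3), and the ranges of the 3 groups overlapped. The genes point towards each other on chromosome 14, Psme1 (ENSMUSG00000022216) on the plus strand at chr14:55578123-55581529 and Psme2 (ENSMUSG00000079197) on the minus strand at chr14:55587441-55591113.

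The Psme1 window (chr14:55578244-55578543, plus strand) is shown because it is one of 2 among the genes described that hold an ISRE core (GAAA, any 2 bases, GAAA, or the reverse complement, the element that IRF proteins bind). The match, in capitals, starts 9 bases after the start site.
Psme1: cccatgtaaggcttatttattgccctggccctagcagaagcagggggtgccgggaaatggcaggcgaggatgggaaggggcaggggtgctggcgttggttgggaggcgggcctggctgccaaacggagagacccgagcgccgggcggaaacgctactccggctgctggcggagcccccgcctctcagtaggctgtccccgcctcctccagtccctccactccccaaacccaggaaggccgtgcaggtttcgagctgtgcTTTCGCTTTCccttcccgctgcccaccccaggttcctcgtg

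**Figure D2:**
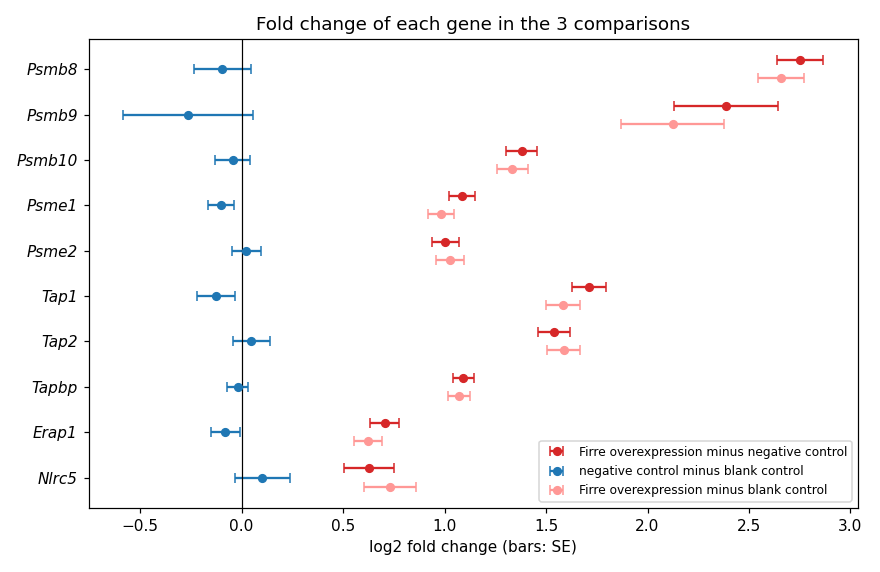
Log2 fold change of each gene (x axis) with its SE as bars, for Firre overexpression minus negative control, negative control minus blank control and Firre overexpression minus blank control. Both Firre comparisons lie to the right of 0 for all 10 genes, from 0.62 to 2.75, while the values between the controls run from -0.26 to 0.10.

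The constitutive partners that the immunosubunits replace also rose, by 0.33 to 0.49 on the log2 scale. Psmb5, the chymotrypsin-like partner of Psmb8, had 27.5, 24.2 and 26.4 CPM with Firre against 16.7, 18.5 and 20.5 CPM in the negative control, a log2 fold change of 0.49 (SE 0.10, adjusted p = 1.56e-04). Psmb6 and Psmb7, the partners of Psmb9 and Psmb10, rose by 0.34 (SE 0.06, adjusted p = 6.44e-06) and 0.33 (SE 0.06, adjusted p = 1.58e-05). Psme3, which encodes the nuclear PA28 gamma ring, was not called (0.01, SE 0.05, adjusted p = 0.829), and its value was -0.04 with library totals alone as the scaling. Against the blank control Psmb5 rose by 0.30 (adjusted p = 0.0114), but without blank control replicate 2 its value was 0.17 and it was not called (adjusted p = 0.136).

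The balance within each pair was therefore followed as a ratio of length-scaled counts inside each library, which no library scaling can alter. The Psmb8 to Psmb5 ratio was 0.281, 0.323 and 0.262 with Firre, 0.0730, 0.0594 and 0.0496 in the negative control and 0.0559, 0.0639 and 0.0508 in the blank control. It was 4.80-fold higher with Firre than in the negative control (log2 difference 2.26, SE 0.18). The Psmb9 to Psmb6 ratio was 0.0202, 0.0197 and 0.0169 with Firre and 0.00395, 0.00545 and 0.00425 in the negative control, 4.19-fold higher. The Psmb10 to Psmb7 ratio was 0.836, 0.998 and 0.847 with Firre and 0.472, 0.411 and 0.418 in the negative control, 2.06-fold higher. Psme1 plus Psme2 stood to Psme3 at 2.55, 2.55 and 2.90 with Firre and at 1.28, 1.30 and 1.29 in the negative control, also 2.06-fold higher. For all 4 ratios the Firre libraries lay above both controls without overlap. The exact two-sided permutation test gave p = 0.1 for each against either control, the smallest that 3 against 3 libraries allow (0.15 after Benjamini-Hochberg adjustment over the 12 ratio tests), so this design cannot take them under 0.05.

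As a share of the transcripts for one catalytic position, Psmb8 made up 22.4% ± 1.88 of Psmb8 plus Psmb5 with Firre, 5.71% ± 1.04 in the negative control and 5.38% ± 0.588 in the blank control (SD, n = 3). Psmb10 made up 47.1% ± 2.46, 30.2% ± 1.58 and 30.2% ± 1.58 of Psmb10 plus Psmb7, and Psmb9 made up 1.86% ± 0.174 of Psmb9 plus Psmb6 with Firre and 0.453% ± 0.0787 in the negative control. The shares depend on the length taken for each gene: with the longest annotated transcript in place of all exon bases, the Psmb8 share was larger, at 33.8% with Firre and 9.69% in the negative control, and the Psmb9 share smaller, at 1.22% and 0.297%. Between the controls the 4 ratios differed by -0.13 to 0.08 on the log2 scale (exact permutation p of at least 0.7). These are transcript shares and do not measure which subunits were built into proteasomes.

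**Figure D3:**
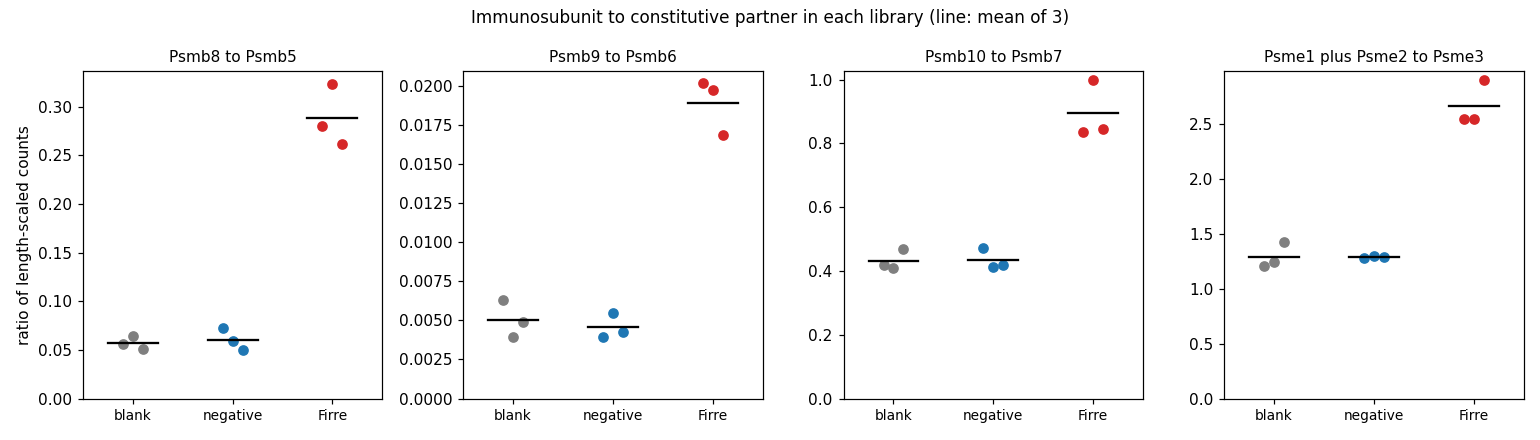
Ratio of length-scaled counts of each immunosubunit to its constitutive partner, and of Psme1 plus Psme2 to Psme3, in each library (y axis, from 0); the line is the mean of the 3 libraries. The Firre libraries stand above both control groups in each panel, for example at 0.262 to 0.323 against 0.0496 to 0.0730 for Psmb8 to Psmb5 in the negative control.

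Both TAP chains rose, by similar amounts. Tap1 had 38.8, 35.6 and 37.0 CPM with Firre, 12.0, 10.7 and 11.3 CPM across the negative controls, and 12.0, 12.3 and 12.7 CPM across the blank ones. Tap2 had 47.5, 45.7 and 44.2 CPM with Firre, 15.6, 17.5 and 14.1 CPM across the negative controls, and 15.1, 15.2 and 15.4 CPM across the blank ones. The log2 fold changes were 1.71 (SE 0.08, adjusted p = 4.49e-17) and 1.54 (SE 0.08, adjusted p = 2.18e-16). Per kilobase of exon, Tap1 stood to Tap2 at 0.560 ± 0.0202 with Firre, 0.503 ± 0.0710 in the negative control and 0.560 ± 0.0123 in the blank control (SD, n = 3), ranges that overlapped. Tap1 (ENSMUSG00000037321) lies at chr17:34187553-34197225 and Tap2 (ENSMUSG00000024339) at chr17:34203527-34216321, both on the plus strand and on either side of Psmb8.

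Psmb9 and Tap1 are transcribed away from each other from RefSeq start sites only 226 bases apart, and their promoter windows share 275 bases, most of the stretch below (the Tap1 window, chr17:34187306-34187605, plus strand). In the GENCODE spans given here the genes instead overlap at their starts, with 212 shared exon bases. Which start sites were used in these cells was not tested. Capitals mark a Y box (CCAAT, in 37.4% of all promoter windows) and an X2 core (TGACG, in 20.8%). They begin at positions -222 and -86 from the Tap1 start site. Elements of these kinds occur in the SXY module of MHC promoters, but whether the matches form one was not tested. Both matches fall in the shared bases and are also counted in the Psmb9 window.
Tap1: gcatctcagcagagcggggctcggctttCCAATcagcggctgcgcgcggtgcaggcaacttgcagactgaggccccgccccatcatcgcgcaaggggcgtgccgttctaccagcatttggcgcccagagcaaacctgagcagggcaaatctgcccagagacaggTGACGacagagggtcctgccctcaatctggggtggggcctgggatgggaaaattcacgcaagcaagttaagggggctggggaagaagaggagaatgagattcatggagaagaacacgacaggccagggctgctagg

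Tapasin had the highest level per length of the 10 genes with Firre and in the negative control. Tapbp held 242, 256 and 245 CPM with Firre, 117, 122 and 109 CPM across the negative controls, and 120, 112 and 121 CPM across the blank ones, a rise of 1.09 against the negative control (SE 0.05, adjusted p = 2.46e-17). Tapbp (ENSMUSG00000024308) lies at chr17:33915899-33929292 on the plus strand and shares 149 exon bases with Zbtb22 on the same strand.

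The smallest rises were those of the peptidase and the regulator. Erap1 had 55.9, 54.4 and 61.4 CPM with Firre, 34.6, 37.0 and 33.7 CPM across the negative controls, and 38.9, 39.0 and 33.4 CPM across the blank ones, a log2 fold change of 0.70 against the negative control (SE 0.07, adjusted p = 4.67e-10). Nlrc5 had 12.8, 12.2 and 15.5 CPM with Firre, 8.12, 9.74 and 8.27 CPM across the negative controls, and 9.45, 6.88 and 8.23 CPM across the blank ones. Its rise of 0.63 (SE 0.12, adjusted p = 7.99e-05) was the smallest of the 10, yet the lowest Firre library was still above the highest control. Erap1 (ENSMUSG00000021583) lies at chr13:74639568-74693201, where 834 of its exon bases overlap Cast on the other strand, and Nlrc5 (ENSMUSG00000074151) at chr8:94434356-94527272, both on the plus strand. Cast had 29664 counts over the 9 libraries and Erap1 7599, so the Erap1 value is uncertain in the same way as that of Psmb9, since strand use in the counting is not known.

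The Erap1 window (chr13:74639603-74639902, plus strand) is the other one that holds an ISRE core, in capitals across the start site, from 4 bases before to 5 after it.
Erap1: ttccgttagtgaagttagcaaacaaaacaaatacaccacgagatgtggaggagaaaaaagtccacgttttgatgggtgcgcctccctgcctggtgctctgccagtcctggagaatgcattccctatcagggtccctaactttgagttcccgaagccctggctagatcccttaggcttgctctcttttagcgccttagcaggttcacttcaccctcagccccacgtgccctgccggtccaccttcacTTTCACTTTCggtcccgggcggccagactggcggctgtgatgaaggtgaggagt

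RefSeq windows were found for 8 of the 10 genes, with Tap2 and Nlrc5 not matched. The RefSeq start sites differ from the starts of the GENCODE spans given for the genes. The windows of Psmb8, Psmb9, Psme1, Tapbp and Erap1 lie wholly inside those spans. On both strands, 5 motifs were searched: the ISRE core (GAAA, any 2 bases, GAAA), present in 3.43% of all 32817 promoter windows of this length, the GAS core TTCNNNGAA (8.29%), the Y box CCAAT (37.4%), the X2 core TGACG (20.8%) and the kB core (GGG, any 2 bases, TTTCC, 1.63%). The ISRE core was in the windows of Psme1 and Erap1, the GAS core in that of Psmb8, the Y box in those of Psmb9, Tap1 and Tapbp, and the X2 core in those of Psmb9, Tap1 and Psme2. The windows of Psmb5 and Psmb6 also held the X2 core. The kB core was found in none of these windows, and none of the 5 motifs in the Psmb10 window. A match describes letters in this window and not a bound site.

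Per kilobase of exon, the order of the levels with Firre was Tapbp (68.2 ± 2.14 CPM per kb), Psme1 (59.8 ± 4.58), Psmb10 (29.0 ± 1.85), Psme2 (28.8 ± 1.36), Tap2 (12.1 ± 0.429), Psmb8 (8.33 ± 0.543), Erap1 (7.86 ± 0.508), Tap1 (6.78 ± 0.297), Nlrc5 (1.59 ± 0.207) and Psmb9 (1.17 ± 0.165; SD, n = 3). The libraries of neighbours in this order did not overlap except for Psmb10 with Psme2 and Psmb8 with Erap1. In the negative control the levels were 32.0 ± 1.88 for Tapbp, 28.2 ± 0.668 for Psme1, 14.4 ± 0.381 for Psme2, 11.2 ± 0.0884 for Psmb10, 4.82 ± 0.231 for Erap1, 4.16 ± 0.460 for Tap2, 2.07 ± 0.114 for Tap1, 1.24 ± 0.111 for Psmb8, 1.03 ± 0.105 for Nlrc5 and 0.221 ± 0.0319 for Psmb9. There, Erap1 overlapped with Tap2 and Psmb8 with Nlrc5. Psmb8 went from the eighth place in both controls to the sixth with Firre, and Erap1 from the fifth to the seventh, places that shift further with the length taken for a gene.

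The control vector was compared with the blank control in the same fit. None of the 10 was called between the negative and the blank control by edgeR (0 by limma voom as well), where 0.0576% of all genes were called. None had an unadjusted p under 0.05 either, beside 8.51% of all genes tested. The log2 fold changes ran from -0.26 for Psmb9 (SE 0.32, adjusted p = 0.870) to 0.10 for Nlrc5 (SE 0.13, adjusted p = 0.882), and 7 of the 10 were negative. Tap1 was the only one whose control groups did not overlap (-0.13, SE 0.09, adjusted p = 0.759), and 13.1% of all genes tested had control groups that did not overlap.

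Other proteasome genes had smaller fold changes, and their calls stand beside 27.5% of all genes called higher and 28.4% called lower. Of 11 other subunits of the 20S core, 5 rose and none fell against the negative control, with log2 fold changes of 0.01 to 0.30 and a median of 0.09, and 2 rose with library totals alone as the scaling. Psma6, Psmb1 and Psma4, structural subunits of the barrel, rose by 0.30, 0.18 and 0.18. Of 18 subunits of the 19S cap, which recognises ubiquitin and unfolds substrates, 7 rose and 2 fell (median 0.09). The ATPase genes Psmc5 and Psmc2 rose by 0.51 and 0.38, and Psmd8 fell by 0.33. The count of 2 lower was 1 without negative control replicate 1 or 3, and also without Firre replicate 1 or 3. Among 11 assembly factors and other activators 4 rose and 1 fell (median 0.10). Psme4, the gene of the activator PA200, rose by 0.48, and Psmf1, which encodes the inhibitor PI31, rose by 0.43.

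Downstream of peptide supply, 12 MHC class I chains and loading partners were followed, of which 8 rose and 2 fell (median 1.05), beside 27.5% and 28.4% of all genes. The 8 are 7 of the 8 class I chains on the list and the tapasin-related editor gene Tapbpl (0.47, SE 0.13), while the chain H2-M3 was not called (0.03, SE 0.25). H2-D1, a classical class I heavy chain, went from 107 ± 2.83 to 266 ± 4.20 CPM (log2 1.32, SE 0.05). The nonclassical chains H2-T23 and H2-Q6 rose by 1.33 (SE 0.07) and 2.77 (SE 0.22), and reads of H2 genes can be shared between near-identical copies, so their values are uncertain. The 2 that fell were the lectin chaperone gene Calr, from 989 ± 40.1 to 743 ± 7.63 CPM, and Pdia3, the disulfide isomerase ERp57, from 627 ± 12.0 to 487 ± 14.3 CPM (SD, n = 3), and the chaperone gene Canx was not called (0.04, SE 0.05). Tapbpl, H2-M3, Calr, Pdia3 and Canx were named after their values were seen. Of 9 other peptidases that trim or destroy peptides 2 rose and 1 fell (median 0.10), beside 27.5% and 28.4% of all genes. Ide rose by 0.21 and Npepps by 0.16, and Thop1 fell by 0.26.

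**Figure D4:**
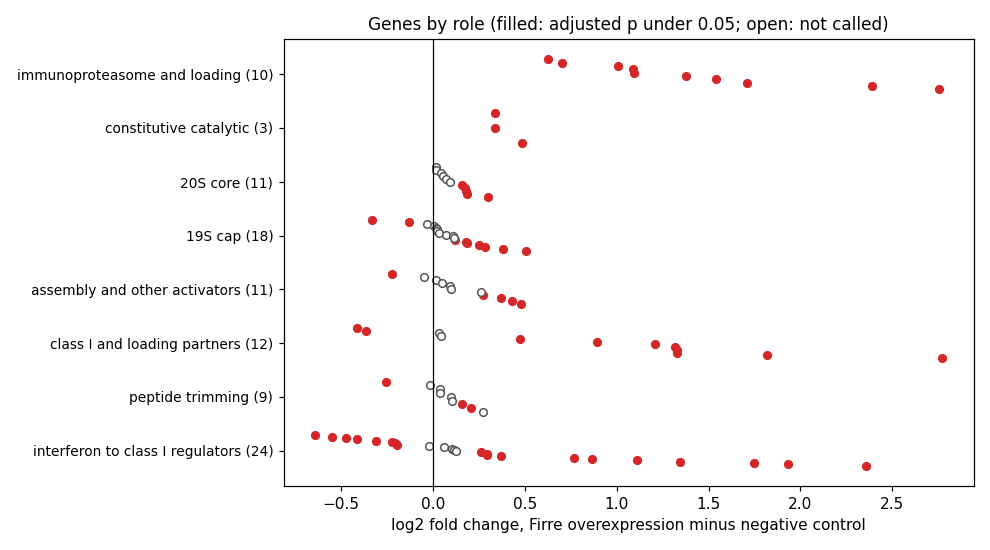
Log2 fold change of each tested gene between Firre overexpression and the negative control (x axis), grouped by role with the number of genes in parentheses; filled points passed the test at an adjusted p under 0.05 and open points did not. The 10 genes described lie between 0.63 and 2.75, the 20S and 19S subunits between -0.33 and 0.51.

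A list of 25 interferon receptors, signalling genes and transcription factors that lead to class I promoters was followed next. Of these 24 were tested, 11 rose and 8 fell (median 0.12), beside 27.5% and 28.4% of all genes. Irf7, an interferon-induced transcription factor, rose by 2.36 (SE 0.05, adjusted p = 8.32e-26), and the interferon signalling genes Stat2 and Irf9 rose by 1.93 (SE 0.06) and 1.34 (SE 0.07). Irf1, a direct activator of Psmb9 and Tap1, went from 11.6 ± 1.39 to 21.1 ± 1.63 CPM (SD, n = 3). The 4 interferon receptor chains moved in both directions: Ifngr1 (-0.55), Ifnar1 (-0.42) and Ifnar2 (-0.20) fell, and Ifngr2 rose (0.37, SE 0.05; 119 ± 5.97 CPM in the negative control, 153 ± 8.49 CPM with Firre). The NF-kB genes Nfkb1 (-0.48) and Rela (-0.31) fell. Irf1, the 4 receptor chains and the NF-kB genes were named after their values were seen. Between the controls 1 of the 24 was called, Irf7, which was lower in the negative than in the blank control (-0.31, SE 0.05, adjusted p = 0.00419).

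Neighbours of the 10 on the chromosome moved in both directions. Of 94 tested genes whose start lay within 250 kb of one of the 10, 29 rose and 20 fell (median 0.13), beside 27.5% and 28.4% of all genes. Around the Tap1, Psmb9, Psmb8 and Tap2 cluster 5 neighbours had enough counts to be tested, none rose and 1 fell, the class II peptide exchange gene H2-DMb1, by 2.08 from 0.712 ± 0.0868 to 0.162 ± 0.0966 CPM. On chromosome 14, 11 of 27 neighbours of Psme1 and Psme2 rose and 8 fell, and Irf9, with a start 12.5 kb from that of Psme2, is among those that rose. The other called neighbours of largest change were all below 3 CPM in each group mean: Tgm1 (-2.42), Cideb (1.87) and the meiotic cohesin gene Rec8 (1.66) on chromosome 14, the noncoding BC051226 (1.66) beside Tapbp and 9330175E14Rik (1.65), which starts 0.747 kb from Nlrc5 on the other strand and shares 78 exon bases with it.

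**Figure D5:**
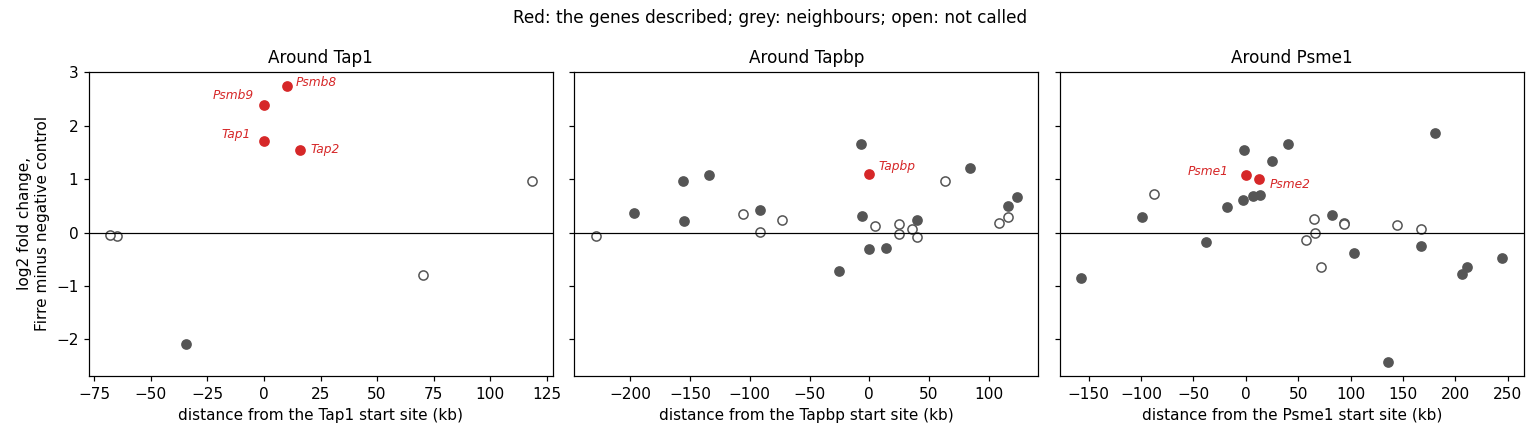
Log2 fold change between Firre overexpression and the negative control (y axis) against the distance of each gene's start from the start of Tap1, Tapbp or Psme1 in kb (x axis). Red points are the genes described, grey points their tested neighbours, and open points did not pass the test; Psmb8, Psmb9, Tap1 and Tap2 stand at 1.54 to 2.75 with their 5 tested neighbours at or below 0.97.

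The genes whose pattern over the 9 libraries was most like the mean of the 10 were Ifit2 (Pearson r = 0.998), an interferon-induced RNA-binding protein gene, Lrrc39 (0.998), which encodes a sarcomeric M-band protein, Phyh (0.998), a peroxisomal fatty acid oxidation gene, Asb8 (0.998) and the guanylate-binding protein gene Gbp3 (0.998), out of 11046 candidates with a mean of at least 5 CPM. Their log2 fold changes against the negative control were 1.53, 1.14, 0.94, 0.50 and 3.58. Since the 9 points fall into a high Firre group and 6 low controls that share their libraries, any gene that rose steadily reaches a high r, and 1196 candidates (10.8%) had an r above 0.95. Each of the 10 followed the mean of the other 9 at an r of 0.905 for Nlrc5, 0.962 for Erap1 and 0.978 to 0.997 for the rest.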

How the data were processed

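RNA was measured in 9 libraries described as isolated mouse cardiomyocytes. Per the labels' protocols they were prepared from TRIzol RNA by ribosomal RNA depletion with a directional kit and sequenced as paired-end reads. The labels give the molecule as polyA RNA, which conflicts with ribosomal RNA depletion, so the RNA selection is uncertain. The authors deposited raw counts per Ensembl gene; the submitters' processing notes name FastQC, Trimmomatic, STAR, featureCounts and mm10, but no version or setting. The 5 closing lines of unassigned reads (16.3% to 17.4% of all counts) stayed out of library sizes and tests. Those lines have the form that the program HTSeq writes, not featureCounts, so the counting tool is uncertain too. Symbols, positions and exon lengths came from GENCODE M21 (55227 identifiers matched).

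Groups were compared by the quasi-likelihood test of edgeR 4.0.16 in R 4.3.3, in robust mode, with TMM scaling, filterByExpr (minimum count 10, minimum total 15), 1 fit of all 9 libraries (6 residual degrees of freedom) and Benjamini-Hochberg adjustment over 15633 genes at 0.05. Each SE was derived from the F statistic and its log2 fold change. Alternatives were other scalings, DESeq2 1.42.0, limma 3.58.1 voom, other low-count filters, fits of the compared groups only, a replicate block, leaving out each library and another gene length. On simulated counts (14966 genes, Firre overexpression against the negative control) 84.0% of genes with a log2 change of 0.5 were recovered, 87.8% at 1 and 100.0% at 2. The simulation gave every gene the same spread and left 14767 genes unchanged. In these data 27.5% of genes were called higher and 28.4% lower, so the recovery rates may not hold for them.

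The titles call the libraries biological replicates, but no animal or culture is named, so the p-values reflect just the spread among these samples, possibly technical. Replicates differed by more than sampling noise (chi-square per degree of freedom 3.27 to 7.39). The labels name no batch, so batch and group cannot be told apart. The 10 genes and the 13 related lists were chosen with earlier results of these data known. Named genes are the 10, their constitutive partners and Psme3, up to 3 genes of smallest p per list, up to 6 called neighbours within 250 kb, and the 5 most alike genes; genes outside this rule are marker genes at 0 counts or are given as named after their values were seen.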

Additional observations from a re-analysis of the deposited data

How the results depend on the processing

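All 10 genes stayed called higher in both comparisons with Firre under each of the 18 alternatives, with log2 fold changes against the negative control of 2.69 to 2.82 for Psmb8, the largest, and 0.52 to 0.72 for Nlrc5, the smallest, whose adjusted p was at most 0.00228. None was called between the controls under any alternative, but each of the 10 had an adjusted p there in only 17 of the 18. The sign of some uncalled values turned. Psme3 with Firre was -0.0402 under library totals. Between the controls, leaving out 1 library gave -0.0864 to 0.0370 for Psmb10, -0.0394 to 0.122 for Tap2, -0.0588 to 0.0249 for Tapbp, -0.0162 to 0.218 for Nlrc5 and -0.0740 to 0.0122 for Psmb7. The 4 log2 ratios between the controls ran from -0.0607 to 0.22 (Psmb8 to Psmb5), -0.30 to 0.0451 (Psmb9 to Psmb6), -0.0561 to 0.0668 (Psmb10 to Psmb7) and -0.0469 to 0.0747 (PA28 to Psme3) in the same way. The cause was not tested. The few genes called between the controls, 1 higher and 8 lower, became 0 higher with upper quartile factors, limma voom or the compared groups only, 17 and 15 with DESeq2, 31 and 67 without a low-count filter, and 5 lower with library totals, limma voom or the 1 CPM filter. They ran from 0 to 23 higher and 0 to 32 lower without 1 library, with 0 and 0 without blank control replicate 1 and 23 and 32 without blank control replicate 2. Among the 99 related genes outside the cell marker lists, 1 lower between the controls became 2 with DESeq2 and 3 without the filter (0 to 1 without 1 library). Of the 10 endothelial markers, 1 was also called lower between the controls in the main fit.

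Same-numbered libraries did not deviate together (correlation across genes -0.04 to 0.03), so the numbers were not taken as pairs. With the replicate number as a block, 10 of 10 genes were still higher, and all genes called were 4208 higher and 4384 lower against 4306 and 4441. With library totals alone the calls against the negative control were 3685 higher and 5050 lower, a share of 42.2% higher against 49.2%.

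With the longest transcript as the length, the levels with Firre in CPM per kb were 85.4 (Tapbp), 66.5 (Psme1), 52.7 (Psme2), 37.8 (Psmb10), 14.8 (Psmb8), 13.3 (Tap2), 10.1 (Erap1), 9.49 (Tap1), 1.78 (Nlrc5) and 1.48 (Psmb9). In the negative control they were 40.1 (Tapbp), 31.3 (Psme1), 26.3 (Psme2), 14.5 (Psmb10), 6.22 (Erap1), 4.57 (Tap2), 2.90 (Tap1), 2.19 (Psmb8), 1.15 (Nlrc5) and 0.280 (Psmb9). Depth limits Psmb9 most, at 14 to 20 counts per control library.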

Other observations

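MHC class II genes load peptides from endosomes and are mostly expressed by professional antigen-presenting cells. The class II list of 10 genes includes the protease gene Ctss, which encodes no MHC chain. Only 5 of the 10 had enough counts to be tested. With Firre against the negative control none was called higher and 2 lower, beside 27.5% and 28.4% of all genes. Ctss, the gene of the endosomal protease cathepsin S, had a log2 fold change of -5.24 (SE 0.21, adjusted p = 6.20e-19 by edgeR), from 10.1, 11.6 and 12.5 CPM to 0.202, 0.316 and 0.366 CPM, and H2-DMb1 fell by 2.08. The other 3 did not pass the test and had values of -0.79 for H2-Ab1 (adjusted p = 0.109), 0.97 for H2-Eb1 (adjusted p = 0.162) and -0.04 for H2-DMa (adjusted p = 0.819 by edgeR). Ciita, the class II counterpart of Nlrc5, was too low to be tested in any group, at a mean of at most 0.0620 CPM. Macrophage markers, summed at 75.9 to 82.2 CPM in the negative control and 12.0 to 13.6 CPM with Firre, fell as Ctss and H2-DMb1 did. The other 3 tested class II genes were not called with Firre, and a link to the markers was not tested. From the blank to the negative control, macrophage markers had a median log2 fold change of -0.53 and Ctss went from 16.3 to 11.4 CPM. H2-DMb1 went the other way there, from 0.426 to 0.712 CPM, and had 1 to 16 counts per library. None of these was called between the controls.

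Transcripts of the interferon ligands themselves were at or near 0 counts. Ifng had 0 counts in all 9 libraries, which does not exclude a very low level. Ifnb1 had 9 counts over the 3 Firre libraries and 0 over each control group, and the 15 Ifna genes together had 2 counts with Firre and 0 in each control group. H2-Eb1, H2-DMa, Ciita and these ligands were looked up after the other values were seen.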
